A study of Homo sapiens with 4 samples.

Results

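The 38 genes described here are the enzymes of glycolysis, the regulators of its flux, the subunits of the hypoxia-inducible factors (HIF), the prolyl hydroxylases that sense oxygen for them, and further genes that HIF induces. They were chosen by gene symbol from the deposited tables, and all 38 of them were found among the 27940 symbols. They divide by role into 17 glycolytic enzymes, 4 flux regulators, 3 HIF subunits, 2 prolyl hydroxylases and 12 other HIF targets. A mean of at least 1 FPKM (a fragment density per transcript length, relative to all mapped fragments) was needed for testing, and 37 of the 38 were tested among 11394 genes. EGLN3 was the member below that level. Gene positions are those of the tables, in hg38, counted from 1.

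RNA was sequenced from U87, an established human glioma line, in 2 groups of 2 libraries. The shPTPRN3 cells had been infected with a lentivirus that carries a hairpin against PTPRN, which encodes a phosphatase-like protein of secretory granules, and the shNC cells with the empty FUGW-H1 vector. In the design text the control is given as H1-RFP (WT). Both groups grew in serum-containing DMEM in a CO2 incubator, and the labels mention no low-oxygen treatment. The knockdown rests on 1 hairpin, and the design text calls the libraries biological replicates without saying whether they came from separate infections or cultures, so p-values here reflect only how far these libraries differ, and that may be a technical spread. The targeted gene PTPRN had 5.22 and 3.42 FPKM under the hairpin, against 28.6 and 19.3 FPKM with the empty vector (log2 fold change -2.22, SE 0.34, limma adjusted p = 0.0594). The groups did not overlap, and PTPRN itself did not pass the adjusted test.

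Glycolysis splits glucose into pyruvate and yields ATP without oxygen, and lactate dehydrogenase then turns pyruvate into lactate. When oxygen is plentiful, prolyl hydroxylases modify the HIF alpha subunits and mark them for destruction; when it is scarce, the alpha subunits pair with ARNT and bind DNA at sites with the core ACGTG or GCGTG. Glioma cells are known for high glycolysis in the presence of oxygen, and several glycolytic genes are themselves HIF targets.

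The HIF core was looked for in the RefSeq promoter windows (build GRCh38.p14), which run from 250 bases before to 50 bases after a transcript start. Of the 38 members, 35 matched the table, with 61 windows; NDRG1, VEGFA and BNIP3L did not. ACGTG, read on both strands so that CACGTG counts as a pair of overlapping matches, lay in 24 of the 61 windows (39.3%), against 21.4% of all 35116 windows and 26.0% of the windows of tested genes. GCGTG, read in the same way, lay in 42.6% of the members' windows, against 36.5% of all windows and 49.0% of those of tested genes. The 4 windows below all hold ACGTG and belong to members whose values lie on opposite sides. ENO2 and BNIP3 were above shNC in both shPTPRN3 libraries, LDHA was below it in both, and CA9 was high in 1 library. ENO1 and KDM3A, whose groups also did not overlap, have no ACGTG in a window and are not shown. Capitals mark ACGTG or its reverse complement CACGT.
ENO2, chr12:6914330-6914629, plus strand: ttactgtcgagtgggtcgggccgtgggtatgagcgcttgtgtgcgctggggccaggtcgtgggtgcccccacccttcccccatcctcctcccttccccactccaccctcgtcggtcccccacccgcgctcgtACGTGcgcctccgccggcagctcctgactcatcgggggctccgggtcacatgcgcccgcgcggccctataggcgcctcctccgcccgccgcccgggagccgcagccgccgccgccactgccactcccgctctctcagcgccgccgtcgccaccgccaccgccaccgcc
LDHA, chr11:18394313-18394612, plus strand: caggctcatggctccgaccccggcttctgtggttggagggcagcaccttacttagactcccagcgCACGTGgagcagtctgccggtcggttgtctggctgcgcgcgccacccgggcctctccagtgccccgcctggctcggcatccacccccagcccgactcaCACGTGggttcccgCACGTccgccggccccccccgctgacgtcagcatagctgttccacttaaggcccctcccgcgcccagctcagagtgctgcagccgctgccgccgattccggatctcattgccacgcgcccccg
BNIP3, chr10:131981874-131982173, minus strand: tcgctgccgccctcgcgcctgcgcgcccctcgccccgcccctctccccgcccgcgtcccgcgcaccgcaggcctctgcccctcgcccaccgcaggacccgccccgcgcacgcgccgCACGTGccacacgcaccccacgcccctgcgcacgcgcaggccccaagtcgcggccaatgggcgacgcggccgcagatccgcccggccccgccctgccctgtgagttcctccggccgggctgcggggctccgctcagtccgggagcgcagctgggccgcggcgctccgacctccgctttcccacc
CA9, chr9:35673678-35673977, plus strand: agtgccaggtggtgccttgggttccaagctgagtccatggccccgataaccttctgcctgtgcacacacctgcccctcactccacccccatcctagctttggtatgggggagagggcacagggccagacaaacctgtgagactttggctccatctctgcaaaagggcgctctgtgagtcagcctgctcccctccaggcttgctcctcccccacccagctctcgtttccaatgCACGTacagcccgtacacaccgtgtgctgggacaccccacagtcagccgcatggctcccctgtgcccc
Counted from the transcript start, the match in ENO2 begins at -118 and that in CA9 at -18. In the windows shown, LDHA has matches from -185, -184, -87, -86 and -73, and BNIP3 from -134 and -133. A further LDHA window, chr11:18396101-18396400, holds no ACGTG. A match is a run of letters and was not tested for binding. The 20 tested members with ACGTG in a window had a median log2 fold change of 0.03 and the 14 without it one of -0.07. NDRG1, VEGFA and BNIP3L, with log2 fold changes of 0.94, -0.55 and 0.96, are in neither median.

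No glycolytic enzyme and no other HIF target passed the test between shPTPRN3 and shNC cells. None of the 37 tested members passed an adjusted p of 0.05 in limma (Benjamini-Hochberg over all tested genes), where 48 of the 11394 genes did (0.421%). At an unadjusted p under 0.05, 2 members passed, against 13.5% of all tested genes. The median log2 fold change was 0.02 over the 37 members and -0.01 over all tested genes. With 2 libraries in each group the intervals were wide: the 95% confidence interval of the log2 fold change held 0 for 35 of 37 members, although the change was under 0.5 in size for 28. These intervals do not show that the genes were equal in the 2 groups.

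**Figure D1:**
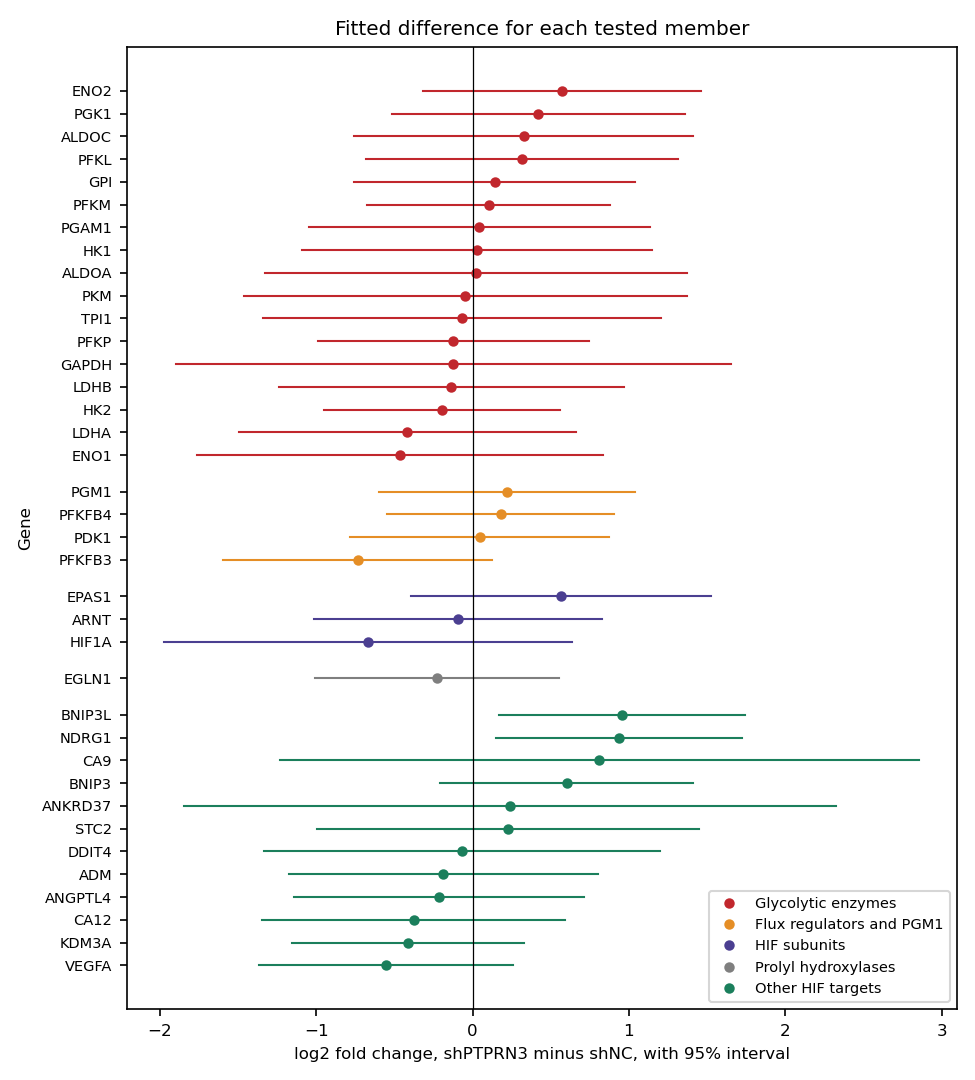
Log2 fold change of each tested member, shPTPRN3 over shNC, on the log2(scaled FPKM + 1) scale, with 95% confidence intervals and members grouped by role. The intervals of BNIP3L and NDRG1 lie above 0, and those of the other 35 hold 0.

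Set against each other, the glycolytic enzymes and the other HIF targets both had medians near 0. The 17 enzymes had a median log2 fold change of 0.02, with 9 above 0 and 8 below, and a range of -0.46 to 0.57. The 12 other HIF targets had a median of 0.08, with 6 above and 6 below, and a wider range of -0.55 to 0.96. The difference of the 2 medians, enzymes minus other targets, was -0.06. Compared between libraries with the same number, the enzymes' median was -0.06 for those numbered 1 and 0.12 for those numbered 2, and the other targets' median 0.38 and 0.06. The difference turned to 0.02 under quantile normalization and to 0.09 when genes listed at 0 were left out. Without shPTPRN3 replicate 1 it was 0.14 and without shPTPRN3 replicate 2 it was -0.43. Without shNC replicate 1 it was -0.57, and without shNC replicate 2 it was 0.15.

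After scaling by a median-ratio factor per library, both shPTPRN3 libraries lay above both shNC libraries for 7 of 37 members, against 21.5% of all tested genes. Both lay below for 5 members, against 23.1% of all tested genes. The 7 were GPI, PFKM, ENO2, PFKFB4, BNIP3, BNIP3L and NDRG1, and the 5 were ENO1, LDHA, PFKFB3, VEGFA and KDM3A. In the deposited FPKM the count above was 5, since PFKM and PFKFB4 overlapped there. GPI counts among the 7 only with its row on an alternate sequence. The other 25 members overlapped.

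None of the enzymes of upper glycolysis, from hexokinase to aldolase, passed the test. HK1, the main hexokinase by level, which phosphorylates glucose, had 111 and 177 FPKM in shPTPRN3 cells, against 115 and 169 FPKM in shNC cells. HK2, the hexokinase that HIF induces, had 22.5 and 16.6 FPKM, against 21.8 and 23.1 FPKM in shNC cells. The groups overlapped for both hexokinases, with log2 fold changes of 0.03 and -0.19. GPI, which isomerises glucose 6-phosphate, had 156 and 142 FPKM in shPTPRN3 cells, against 141 and 132 FPKM in shNC cells (log2 fold change 0.14, SE 0.38). Its symbol sums a row on chromosome 19 and a row on an alternate sequence. The chromosome 19 row alone had 94.0 and 83.7 FPKM in shPTPRN3 cells, against 102 and 76.6 FPKM in shNC cells, which overlap, and with alternate sequences left out the log2 fold change of GPI was 0.019.

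Phosphofructokinase, the committing step of glycolysis, is encoded by PFKL, PFKM and PFKP. PFKP had 96.9 and 73.9 FPKM in shPTPRN3 cells, against 104 and 83.0 FPKM in shNC cells. PFKL had 48.4 and 23.0 FPKM, against 33.5 and 21.5 FPKM in shNC cells, and in both groups replicate 1 was the higher. PFKM had 48.9 and 42.0 FPKM, against 45.7 and 39.6 FPKM in shNC cells. Scaled, PFKM stood at 46.5 and 44.6 in shPTPRN3 cells and at 44.0 and 40.6 in shNC cells, so that its groups did not overlap although the log2 fold change was 0.10. ALDOA, the main aldolase by level, had 1131 and 1106 FPKM in shPTPRN3 cells, against 1317 and 939 FPKM in shNC cells, values that overlap. ALDOC, the brain aldolase, had 29 and 10.2 FPKM, against 14.6 and 12.9 FPKM in shNC cells, and shPTPRN3 replicate 1 was the library that stood high.

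GAPDH and PKM had the highest levels of the 38 in every library. GAPDH, which oxidises glyceraldehyde 3-phosphate, had 3657 and 2895 FPKM in shPTPRN3 cells, against 4738 and 2700 FPKM in shNC cells. TPI1, which interconverts the triose phosphates, had 662 and 427 FPKM, against 753 and 419 FPKM in shNC cells. For both genes the shPTPRN3 libraries lay inside the range of the shNC libraries, and replicate 1 was the higher in each group. PGK1, the first step of the pathway to make ATP, had 139 and 85.1 FPKM in shPTPRN3 cells, against 95 and 70.2 FPKM in shNC cells (log2 fold change 0.42, SE 0.40), with 0.15 left without shPTPRN3 replicate 1, 0.71 without shPTPRN3 replicate 2 and 0.25 without shNC replicate 2. PGAM1, a mutase, had 383 and 236 FPKM, against 340 and 255 FPKM in shNC cells, and its near copy PGAM4 is listed at 14.2 to 20.1 FPKM, so the division of fragments between them is uncertain. GAPDH and other enzymes also have many processed copies in the genome, which makes their levels uncertain in the same way.

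The enolases differed in direction. ENO1 (chromosome 1, 8861000 to 8878686), the enolase of most cells, had 758 and 853 FPKM in shPTPRN3 cells, against 1191 and 1052 FPKM in shNC cells (log2 fold change -0.46, SE 0.55, limma adjusted p = 0.767). ENO2, the enolase best known from neurons, had 99.7 and 73.9 FPKM in shPTPRN3 cells, against 71.0 and 47.2 FPKM in shNC cells (log2 fold change 0.57, SE 0.38, limma adjusted p = 0.545). The groups did not overlap for either gene, and neither gene passed the test. ENO1 was at -0.30 without shPTPRN3 replicate 1, and ENO2 at 0.32 without shNC replicate 2. PKM, which makes pyruvate, had 1413 and 1442 FPKM in shPTPRN3 cells, against 1635 and 1353 FPKM in shNC cells. The table sums its M1 and M2 forms, which are therefore not told apart.

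LDHA, the lactate dehydrogenase subunit that HIF induces, had 360 and 245 FPKM in shPTPRN3 cells, against 438 and 366 FPKM in shNC cells (log2 fold change -0.42, SE 0.46, limma adjusted p = 0.749). LDHB, the other subunit, had 445 and 348 FPKM, against 495 and 384 FPKM in shNC cells (log2 fold change -0.13, SE 0.47). LDHA was below shNC in both shPTPRN3 libraries, with a log2 fold change of -0.20 without shPTPRN3 replicate 2, and the LDHB groups overlapped. Summed over the 17 enzymes, the pathway took 2.33% and 2.61% of all FPKM in shPTPRN3 cells, against 2.42% and 2.58% in shNC cells.

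**Figure D2:**
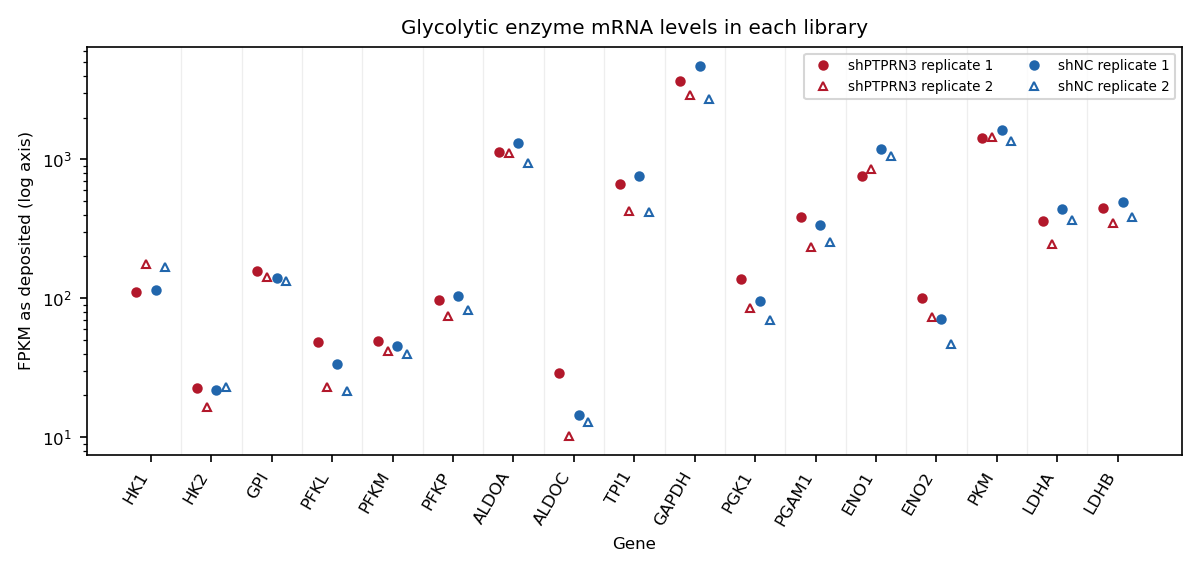
FPKM as deposited of the glycolytic enzymes in each library, on a log axis. The shPTPRN3 libraries are in red and shNC in blue, with filled circles for replicate 1 and open triangles for replicate 2. ENO1 is lower and ENO2 higher in both shPTPRN3 libraries, and GAPDH has the highest level.

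None of the flux regulators passed the test. PFKFB3 (chromosome 10, 6144921 to 6254648), which makes the activator fructose 2,6-bisphosphate, had 5.78 and 6.23 FPKM in shPTPRN3 cells, against 8.33 and 13.8 FPKM in shNC cells (log2 fold change -0.74, SE 0.36, limma adjusted p = 0.434). Both shPTPRN3 libraries were below both shNC libraries, of which replicate 2 was the higher, and the log2 fold change was -0.36 without that library. PFKFB4, a related enzyme that HIF induces, had 14.9 and 11.8 FPKM, against 12.8 and 10.8 FPKM in shNC cells. PDK1, which keeps pyruvate out of mitochondria, had 4.61 and 2.14 FPKM, against 2.99 and 3.17 FPKM in shNC cells. PGM1, which links glycogen to glycolysis, had 52.5 and 36.2 FPKM, against 35.4 and 40.0 FPKM in shNC cells. The PDK1 and PGM1 groups overlapped, with shPTPRN3 replicate 1 the highest library for both.

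The HIF subunits varied between libraries of a group. HIF1A (chromosome 14, 61695513 to 61748259), the oxygen-regulated subunit of HIF-1, had 53.2 and 51.4 FPKM in shPTPRN3 cells, against 49.5 and 143 FPKM in shNC cells. Its log2 fold change of -0.67 rests on shNC replicate 2: without that library it was 0.13. EPAS1, the alpha subunit of HIF-2, had 86.0 and 54.8 FPKM in shPTPRN3 cells, against 37.6 and 57.4 FPKM in shNC cells (log2 fold change 0.57, SE 0.40). This value became 0.32 on leaving out shPTPRN3 replicate 1, 0.22 on leaving out shNC replicate 1 and 0.91 on leaving out shNC replicate 2. ARNT, their shared partner, had 4.37 and 6.06 FPKM, against 4.19 and 7.46 FPKM in shNC cells. The groups overlapped for all 3 genes. The antisense genes that overlap HIF1A are listed at 0.233 FPKM or less, and since the strand setting of the counting is not given, their reads cannot be told apart with certainty.

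Of the prolyl hydroxylases among the members, which mark HIF alpha subunits for destruction, EGLN1 was expressed and EGLN3 hardly so. EGLN2, of the same family but not a member, stood above both. It had 47.3 and 38.9 FPKM in shPTPRN3 cells, against 54.6 and 40.4 FPKM in shNC cells (log2 fold change -0.11), and its groups overlapped. EGLN1 had 6.20 and 5.58 FPKM in shPTPRN3 cells, against 5.93 and 8.50 FPKM in shNC cells (log2 fold change -0.23, SE 0.33). EGLN3, itself a HIF target, had 0.0185 and 0.0267 FPKM, against 0.0459 FPKM in shNC replicate 1 and a listed 0 in shNC replicate 2. EGLN3 entered a test only when the filter on low values was lifted. None of the 38 members passed there, but neither did any of the 19733 genes tested, so nothing is read from it.

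The largest positive fold changes of the 37 tested members were in the mitophagy receptor BNIP3L and the stress-induced NDRG1. BNIP3L (chromosome 8, 26383054 to 26413127) had 43.6 and 42.0 FPKM in shPTPRN3 cells, against 19.7 and 24 FPKM in shNC cells. Its log2 fold change was 0.96 (SE 0.33, 95% confidence interval 0.17 to 1.74, unadjusted p = 0.0238, limma adjusted p = 0.285). NDRG1 (chromosome 8, 133237171 to 133297304) had 35.1 and 26.0 FPKM, against 18.4 and 13.0 FPKM in shNC cells. Its log2 fold change was 0.94 (SE 0.33, 95% confidence interval 0.15 to 1.72, unadjusted p = 0.0263, limma adjusted p = 0.294). Every shPTPRN3 library was above every shNC library for both genes, and neither passed the adjusted test. BNIP3, a relative of BNIP3L with the same role, had 61.2 and 44.6 FPKM, against 38.8 and 30.4 FPKM in shNC cells (log2 fold change 0.60, SE 0.34, limma adjusted p = 0.479).

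VEGFA, KDM3A, CA12, ADM and ANGPTL4 had log2 fold changes below 0, and none of them passed the test. VEGFA (chromosome 6, 43770209 to 43786486), the growth factor that drives new vessels, had 54.7 and 41.0 FPKM in shPTPRN3 cells, against 71.1 and 70.2 FPKM in shNC cells (log2 fold change -0.55, SE 0.34, limma adjusted p = 0.519). KDM3A, a histone demethylase, had 4.89 and 4.84 FPKM, against 6.13 and 7.69 FPKM in shNC cells (log2 fold change -0.41, SE 0.31, or -0.24 without shNC replicate 2). Both shPTPRN3 libraries were below both shNC libraries for VEGFA and KDM3A. CA12, a membrane carbonic anhydrase, had 24.1 and 10.7 FPKM, against 19.5 and 23.4 FPKM in shNC cells (log2 fold change -0.38, or 0.12 without shPTPRN3 replicate 2). ADM, a vasodilating peptide, had 23.6 and 20.5 FPKM, against 38.1 and 16.8 FPKM in shNC cells (log2 fold change -0.19, or 0.34 without shNC replicate 1). ANGPTL4, a secreted lipase inhibitor, was low, at 1.40 and 0.854 FPKM, against 2.52 and 0.729 FPKM in shNC cells (log2 fold change -0.22). The groups overlapped for CA12, ADM and ANGPTL4.

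**Figure D3:**
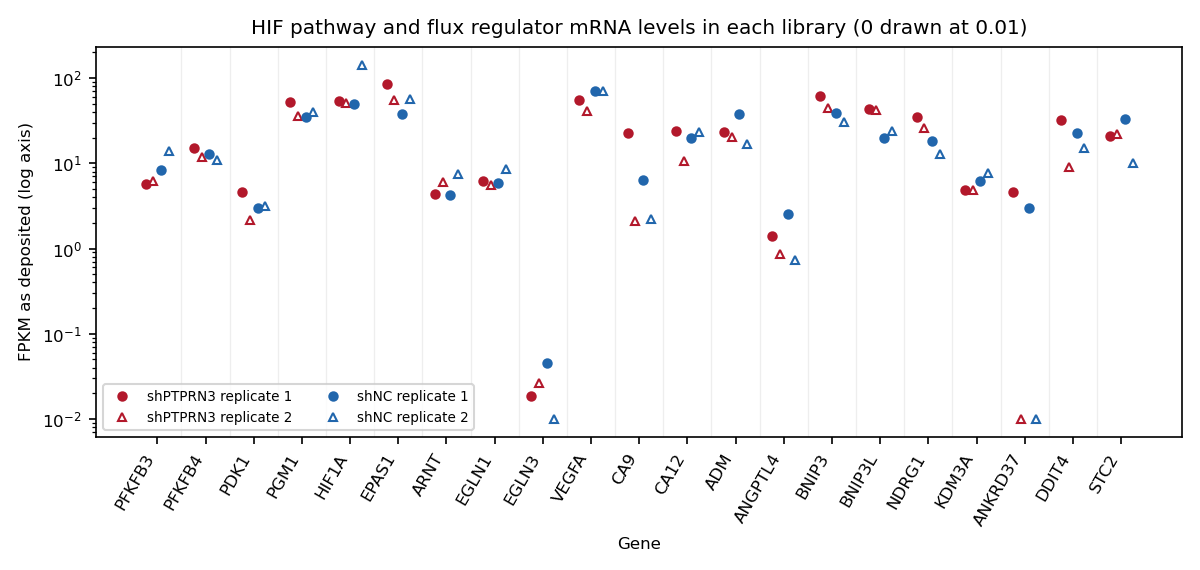
FPKM as deposited of the flux regulators, HIF subunits, prolyl hydroxylases and other HIF targets in each library, on a log axis. The shPTPRN3 libraries are in red and shNC in blue, with filled circles for replicate 1 and open triangles for replicate 2. A value of 0 is drawn at 0.01. BNIP3L and NDRG1 are higher in both shPTPRN3 libraries, and VEGFA is lower.

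Several targets were decided by a library. CA9, the carbonic anhydrase often used as a marker of hypoxia, had 22.6 and 2.08 FPKM in shPTPRN3 cells, against 6.37 and 2.22 FPKM in shNC cells. Replicate 1 was the higher in both groups, and the log2 fold change of 0.81 was -0.59 without shPTPRN3 replicate 1. DDIT4, an inhibitor of mTORC1, had 32.2 and 9.10 FPKM, against 22.4 and 15.0 FPKM in shNC cells. STC2, a secreted glycoprotein, had 21.0 and 22.0 FPKM, against 33.0 and 10.1 FPKM in shNC cells. The groups overlapped for all 3 of these genes, and the log2 fold changes of DDIT4 and STC2 were -0.07 and 0.23. ANKRD37, an ankyrin repeat protein, had 4.60 FPKM in shPTPRN3 replicate 1 and 2.95 FPKM in shNC replicate 1, and is listed at 0 in replicate 2 of both groups. UFSP2, which overlaps it, had 4.90 and 5.28 FPKM in shPTPRN3 cells, against 4.16 and 4.82 FPKM in shNC cells, and how reads were divided between the 2 genes is not known.

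The libraries numbered 1 and 2 were compared within each group, as a description. Scaled, replicate 1 was higher in both groups for 19 of 37 members (51.4%) and lower in both for 7 (18.9%). Over all tested genes these shares were 35.5% and 34.1%. Of the 19, 11 were glycolytic enzymes and 7 other HIF targets. Compared number by number, shPTPRN3 was higher in both pairs for 9 of 37 members, lower in both for 7, and neither of these for 21. Among the 11394 tested genes, these counts were 3896, 4065 and 3433.

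**Figure D4:**
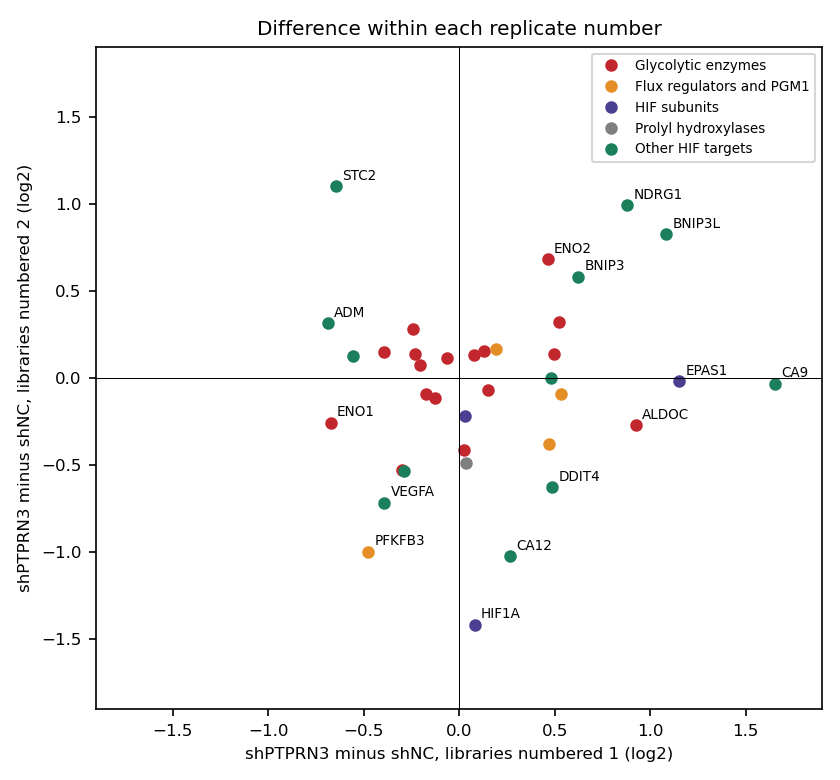
Log2 fold change of shPTPRN3 over shNC between the libraries numbered 1 (horizontal axis) and between those numbered 2 (vertical axis) for each tested member, on the log2(scaled FPKM + 1) scale. BNIP3L and NDRG1 are high in both, while CA9, at 1.65 and -0.03, differs between them.

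The shares of isozymes within a family do not depend on the library's scale. ENO2 made up 11.6% and 7.98% of enolase FPKM in shPTPRN3 cells, against 5.62% and 4.30% in shNC cells. LDHB made up 55.2% and 58.7% of lactate dehydrogenase FPKM, against 53.1% and 51.2% in shNC cells. PFKP made up 49.9% and 53.2% of phosphofructokinase FPKM, against 56.9% and 57.6% in shNC cells. The groups did not overlap for these 3, nor for PFKFB4 (72.1% and 65.5% of the PFKFB pair in shPTPRN3 cells, against 60.6% and 43.8% in shNC cells) and EPAS1 (61.8% and 51.6% of the HIF alpha pair, against 43.2% and 28.6% in shNC cells). The other 6 of the 11 shares overlapped. For single genes, the groups did not overlap in 21.5% of tested genes on the higher side and 23.1% on the lower side, so nothing is read from the count of 5. With 2 libraries against 2, no exact permutation test can reach a p of 0.05, and none was run.

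**Figure D5:**
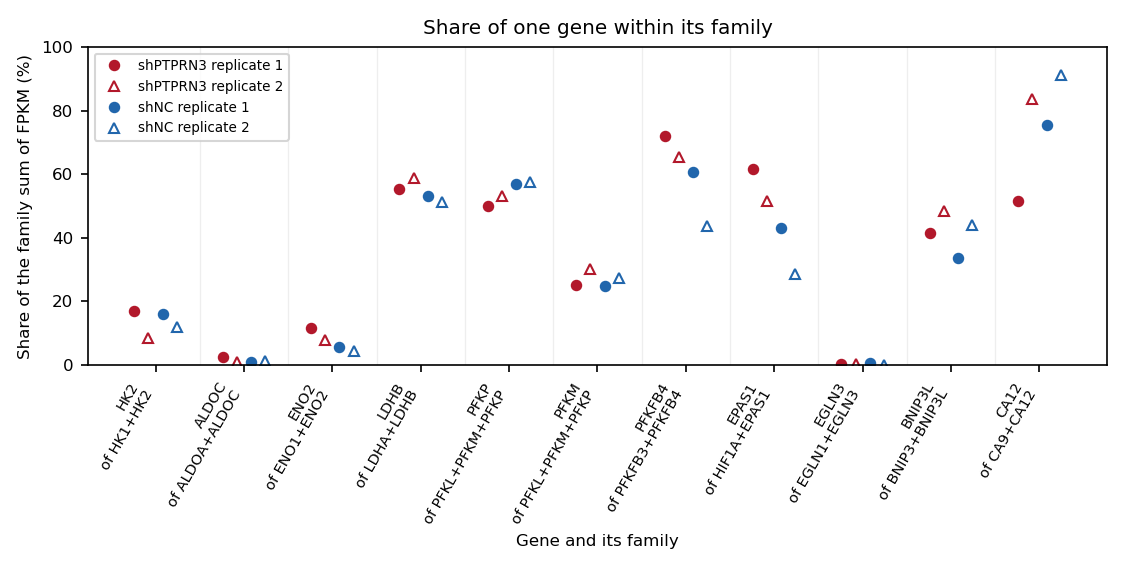
Share of an isozyme in the summed FPKM of its family, in percent, for each library, with shPTPRN3 in red and shNC in blue, filled circles for replicate 1 and open triangles for replicate 2. The ENO2, LDHB, PFKFB4 and EPAS1 shares are higher in both shPTPRN3 libraries, and the PFKP share is lower.

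Genes around the pathway had no called member either, where 0.421% of all tested genes were called. Of 11 glucose and lactate transporters and partners, 7 were tested and none passed: SLC16A1, which exports lactate, had 31.7 and 30.1 FPKM in shPTPRN3 cells, against 16.7 and 18.5 FPKM in shNC cells (log2 fold change 0.79, SE 0.32, limma adjusted p = 0.346), and SLC2A3, a glucose transporter, had 7.76 and 7 FPKM, against 12.8 and 12.9 FPKM in shNC cells (log2 fold change -0.71). BSG, a chaperone of lactate transporters, and SLC2A6 had log2 fold changes of -0.75 and -0.29. Of 21 other isozymes and side enzymes, 8 were tested and none passed, with ADPGK, an ADP-dependent glucokinase, at 11.5 and 10.7 FPKM, against 28.8 and 20.6 FPKM in shNC cells (log2 fold change -1.06, limma adjusted p = 0.218). PFKFB2, a relative of PFKFB3, had a log2 fold change of -0.77. TIGAR, which lowers fructose 2,6-bisphosphate, had 7.22 and 7.56 FPKM, against 4.38 and 3.26 FPKM in shNC cells (log2 fold change 0.82, limma adjusted p = 0.317). BPGM, which makes 2,3-bisphosphoglycerate, had 10.9 and 12.6 FPKM, against 6.15 and 6.90 FPKM in shNC cells (log2 fold change 0.77, limma adjusted p = 0.364). The median log2 fold changes of these lists were -0.11 and -0.21. At an unadjusted p under 0.05 in limma, 2 of the 7 and 3 of the 8 passed, against 13.5% of all tested genes. Of 52 further HIF targets, 46 were tested and none passed, with 28 above 0, 18 below and a median of 0.22. Of the 46, 6 had an unadjusted p under 0.05 in limma. ITGA5, a fibronectin receptor subunit, had the largest fold change of that list, with 418 and 313 FPKM in shPTPRN3 cells, against 83.0 and 81.4 FPKM in shNC cells (log2 fold change 2.14, SE 0.40, limma adjusted p = 0.0787). P4HA2, a collagen prolyl hydroxylase, had 47.3 and 35.2 FPKM, against 16.9 and 11.8 FPKM in shNC cells (log2 fold change 1.48, limma adjusted p = 0.118). KDM4B, a histone demethylase, had 12.9 and 15.9 FPKM, against 5.65 and 5.71 FPKM in shNC cells (log2 fold change 1.21, limma adjusted p = 0.173). RAB20, a small GTPase, had 4.23 and 0.638 FPKM, against 9.07 and 3.40 FPKM in shNC cells (log2 fold change -1.19, limma adjusted p = 0.437), and its groups overlapped. Scaled, both shPTPRN3 libraries lay above both shNC libraries for 16 of the 46 and below for 11. Over all tested genes these shares were 21.5% and 23.1%.

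Branches that leave glycolysis were as follows, beside 0.421% called over all tested genes. None of the 7 genes of the serine branch passed, with 5 of 7 below 0 and a median of -0.45. PHGDH, the first enzyme of serine synthesis, had 16.9 and 10.0 FPKM in shPTPRN3 cells, against 52.2 and 34.8 FPKM in shNC cells (log2 fold change -1.62, SE 0.37, limma adjusted p = 0.117). SHMT1, which turns serine into glycine, had 8.55 and 5.69 FPKM, against 18.7 and 15.2 FPKM in shNC cells (log2 fold change -1.15, limma adjusted p = 0.189). PSAT1 and MTHFD1 had log2 fold changes of -0.61 and -0.45. The 7 pentose phosphate genes had a median of 0.08, the 12 tested genes of pyruvate entry one of 0.09, and the 20 genes of the citrate cycle one of -0.16, and none of them passed. The 11 tested genes of oxygen sensing other than the members had a median of 0.04, and none passed. EP300, a HIF coactivator, and CITED2, which competes with HIF for it, had log2 fold changes of 0.75 and 0.72, and CUL2, a partner of VHL, one of -0.75. The EP300 groups overlapped, with 5.69 and 10.9 FPKM in shPTPRN3 cells, against 2.70 and 6.73 FPKM in shNC cells. For CUL2 the groups did not overlap. For CITED2 they did not overlap once scaled. As deposited they did, with 40.0 and 21.4 FPKM in shPTPRN3 cells, against 23.0 and 13.4 FPKM in shNC cells. VHL, which hands hydroxylated HIF alpha to destruction, had 6.78 and 5.44 FPKM in shPTPRN3 cells, against 9.12 and 11.1 FPKM in shNC cells (log2 fold change -0.63, limma adjusted p = 0.433). The 14 ATF4 targets, which respond to amino acid and endoplasmic reticulum stress, had a median of -0.12, and none passed. DDIT3, NUPR1 and PPP1R15A had log2 fold changes of -0.78, -0.74 and -0.69. DDIT3 had 30.8 and 26.7 FPKM in shPTPRN3 cells, against 93.4 and 27.0 FPKM in shNC cells, and its groups overlapped. PPP1R15A had 17.2 and 18.1 FPKM in shPTPRN3 cells, against 44.2 and 19.5 FPKM in shNC cells. Between the libraries numbered 2, the log2 fold changes of DDIT3 and PPP1R15A were 0.03 and -0.06. SESN2, a stress-induced inhibitor of mTORC1, had 20.9 and 29.5 FPKM, against 12 and 8.58 FPKM in shNC cells (log2 fold change 1.22, limma adjusted p = 0.209).

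Markers of other states are given beside these values. All 10 proliferation markers were lower in both shPTPRN3 libraries and 2 of them passed, CDK1 and MKI67; their summed FPKM was 139 and 68.7 in shPTPRN3 cells, against 538 and 361 in shNC cells. CDK1, which drives entry into mitosis, had 2.33 and 0.387 FPKM, against 31.5 and 19.5 FPKM in shNC cells (log2 fold change -3.59, limma adjusted p = 0.0361). The part of these markers in the members' values was not tested. In bulk samples, fewer cells of a kind and less RNA per cell cannot be told apart. Of the 9 glioma line markers, 4 were tested and none passed. EGFR had 10.6 and 14.6 FPKM in shPTPRN3 cells, against 4.38 and 8.36 FPKM in shNC cells (log2 fold change 0.93, limma adjusted p = 0.390), and NES had 1.37 and 0.917 FPKM, against 2.44 and 3.91 FPKM (log2 fold change -0.94, limma adjusted p = 0.289). VIM had 1986 and 1124 FPKM in shPTPRN3 cells, against 2177 and 1654 FPKM in shNC cells, and CD44 had 103 and 89.4 FPKM, against 87.7 and 89.5 FPKM, and GFAP is listed at 0 in all 4 libraries. The summed neuron markers were 32.5 and 11.4 FPKM in shPTPRN3 cells, against 8.57 and 7.82 FPKM in shNC cells, mostly SNAP25, with RBFOX3 and NEUROD1 near 0. The epithelial, immune and endothelial sums were between 0.368 and 1.00 FPKM in every library.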

How the data were processed

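The mRNA of 4 libraries was prepared with strand-marking chemistry, the kit being named in the labels' protocols. The submitters' processing notes list Cufflinks 2.2.1.2, STAR 2.6.0b-1 and FastQC 0.72 and the build hg38; which annotation and strand option were set is not given in the sources used here. Values deposited by the authors are FPKM per gene row with a confidence interval and a status, per the file headers. No counts are given; depth, judged by how wide the intervals of single-exon genes are, was about 29.7 and 12.9 M fragments for shPTPRN3 and 18.7 and 12.2 M for shNC. It is rough, since 35 of 156 member values lie outside their own deposited interval. The levels of such members carry the same doubt. Among them are TPI1, ENO2, GAPDH, PKM and the alternate row of GPI in all 4 libraries. BNIP3 lies outside in every library except shNC replicate 2, and CA9 in shPTPRN3 replicate 1. Whole counts could not be recovered.

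The members and lists were chosen with earlier results of these data known. Rows not marked OK in every library were left out (651 of 33646), and the rest were summed per symbol. FPKM were divided by median-ratio factors (1.05 and 0.943 for shPTPRN3, 1.04 and 0.974 for shNC), and log2(scaled FPKM + 1) was tested with limma 3.58.1 in R 4.3.3 (trend, two-sided, Benjamini-Hochberg) for genes with a mean of at least 1 deposited FPKM, PTPRN always kept. Fold changes are on that scale, where low genes show too small a change. Each gene's variance had 2 residual and 4.94 prior degrees of freedom. Levels are deposited FPKM. The method was checked on simulated data in which libraries varied independently, so that check does not cover a tie between same-numbered libraries. In all, 18 alternatives were tried. All members could be named; from other lists, called genes and up to 4 with the largest fold change among those at 5 scaled FPKM or more in the higher group. NES, GFAP, RBFOX3, NEUROD1, EGLN2, PGAM4, UFSP2 and the antisense genes of HIF1A were named outside this rule, after their values were seen.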

Additional observations from a re-analysis of the deposited data

How the results depend on the processing

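No member passed in the 18 alternatives, with the exception of the fit with the replicate block, where 3 did (PFKFB3 lower, BNIP3L and NDRG1 higher, adjusted p = 0.0443, 0.0119 and 0.0121 in limma). The fit with the block called 3 of the 37 members beside 2168 of the 11394 tested genes, so nothing is read from the 3. The numbers are not shown to pair the libraries. Deviations of same-numbered libraries from their group means correlated across genes at r = 0.519. With 2 groups of 2 this value is equal for both numbers, and there are only 2 pairs. Genes called over all 11394 were 48, against 31 with FPKM as deposited, 30 with TPM, 23 with a pseudocount of 0.1, 0 without a filter on low values (2163 at an unadjusted p under 0.05), 8 with a mean of at least 5 FPKM, 219 with genes listed at 0 left out, 26 without the trend, 160 with the robust fit, 2168 with the replicate block and 157 with length and GC trends removed. Leaving out a library gave 58 to 199. The cause was not tested.

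Leaving out a library put the enzymes' median between -0.21 and 0.16, the other targets' between -0.35 and 0.73 and their difference between -0.57 and 0.15; the lone library is assumed to vary like the others. Of 37 members, 17 kept their sign in each alternative in which they were tested (16 for ANGPTL4, 18 for the others) and 20 did not. Under quantile normalization the log2 fold change was -0.045 for HK1, 0.051 for TPI1, 0.15 for GAPDH, 0.15 for PKM and 0.011 for LDHB. With TPM it was 0.025 for TPI1, 0.046 for PKM and 0.0094 for DDIT4, and after removal of length and GC trends 0.029 for TPI1, -0.14 for PDK1 and 0.029 for DDIT4. Leaving out a library gave ranges of -0.37 to 0.44 for HK1, -0.13 to 0.78 for PFKL, -0.25 to 0.0079 for PFKP, -0.18 to 0.22 for ALDOA, -0.31 to 0.98 for ALDOC, -0.45 to 0.31 for TPI1, -0.49 to 0.24 for GAPDH, -0.23 to 0.33 for PGAM1, -0.14 to 0.047 for PKM, -0.28 to 0.0041 for LDHB, -0.31 to 0.42 for PDK1, -1.47 to 0.13 for HIF1A, -0.48 to 0.29 for ARNT, -0.49 to 0.037 for EGLN1, -0.59 to 2.23 for CA9, -0.85 to 0.12 for CA12, -0.71 to 0.34 for ADM, -0.74 to 1.48 for ANKRD37, -0.85 to 0.73 for DDIT4 and -0.54 to 0.99 for STC2. The alternative without alternate sequences was chosen after seeing the data and gave 51 called genes; it moved GPI to 0.019, against 0.14. Of members that kept their sign, leaving out a library gave -1.11 to -0.36 for PFKFB3, 0.22 to 0.91 for EPAS1, 0.15 to 0.71 for PGK1, 0.32 to 0.82 for ENO2, -0.62 to -0.20 for LDHA, 0.78 to 1.13 for BNIP3L and 0.74 to 1.13 for NDRG1. Depth is known only roughly, which limits low members such as EGLN3 and ANGPTL4.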
